A study of Mus musculus with 96 samples.

Results

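Mouse embryonic stem (ES) cells in serum differ from one another in the level of genes that the transcription factor p53 activates. The cells described here are the 12 with the highest and the 12 with the lowest combined level of 3 such genes, Mdm2, Trp53inp1 and Ccng1, out of the 48 single cells of the series. They were chosen by those measured levels, so the levels of these 3 genes are a description of the choice and no result. First, the 13 cells with at least 20 CPM of Gata6, a transcription factor of primitive endoderm, were set aside. CPM, the unit of level throughout, is a gene's reads scaled to a common total of reads in genes per cell, with no correction for gene length. In each of the other 35 cells the score was the mean of the z-scores of log2(CPM + 1) of the 3 genes, and the 35 cells fell into 12 high-score cells, 11 cells between and 12 low-score cells. The 24 cells compared make up 48 of the 96 sequenced libraries, since every cell was read on 2 lanes.

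All cells, high-score and low-score alike, are of the ES clone J1, at a passage between 12 and 20, and were grown without feeder cells in medium with serum and leukaemia inhibitory factor (LIF). They carry no labelled allele and received no agent beyond that medium. Single cells were held by microfluidic capture, SMARTer chemistry amplified their cDNA there, and only cells whose amplification succeeded went on to sequencing. The method keeps no strand, so reads of overlapping genes on opposite strands cannot be told apart. No separate cultures are labelled, and the cells are therefore not replicates of a condition: no p-value or standard error was computed, and every difference below describes these cells alone.

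p53, encoded by Trp53, is kept low in unstressed cells by Mdm2, a ubiquitin ligase that marks it for degradation and that is itself a p53 target, which closes a feedback loop. When p53 is active it raises genes that halt the cell cycle, such as Cdkn1a, genes that promote apoptosis, such as Bax and Bbc3, and genes of metabolism and DNA repair. ES cells hold abundant p53 while cycling fast, and p53 has been linked there to lower Nanog and to leaving the pluripotent state.

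Both groups were sequenced to like depth. High-score cells had 5257314 to 9767245 reads in genes and 8039 to 10291 genes with a read, and low-score cells had 4408953 to 9122261 reads and 8291 to 9612 genes. Over the 35 cells, which the labels give 1 culture and preparation protocol without saying how many capture runs there were, Spearman's rho of the score was -0.00 with reads and 0.08 with genes detected. The lanes of a cell agreed within sampling noise, with a chi-square index of 0.964 to 1.05 over the 48 cells where sampling alone gives 1, and were summed.

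The score genes themselves ranged widely. Mdm2 ran from 82.1 over a median of 654 to 1510 CPM in high-score cells, and from 0.56 over 2.03 to 116 CPM in low-score cells. Trp53inp1, a stress-induced protein of autophagy and cell death, had 55.1, 463 and 1349 CPM (lowest, median, highest) in high-score cells and 0.17, 2.91 and 193 CPM in low-score cells. Ccng1, cyclin G1, had 105, 426 and 771 CPM in high-score cells and 2.26, 74.3 and 284 CPM in low-score cells. All 3 genes reached at least 10 CPM in all 12 high-score cells, and in 3, 5 and 9 of the 12 low-score cells in the order named. Low-score cells were thus not all low in each gene: cell 31 had 193 CPM of Trp53inp1 beside 1.75 CPM of Mdm2.

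**Figure D1:**
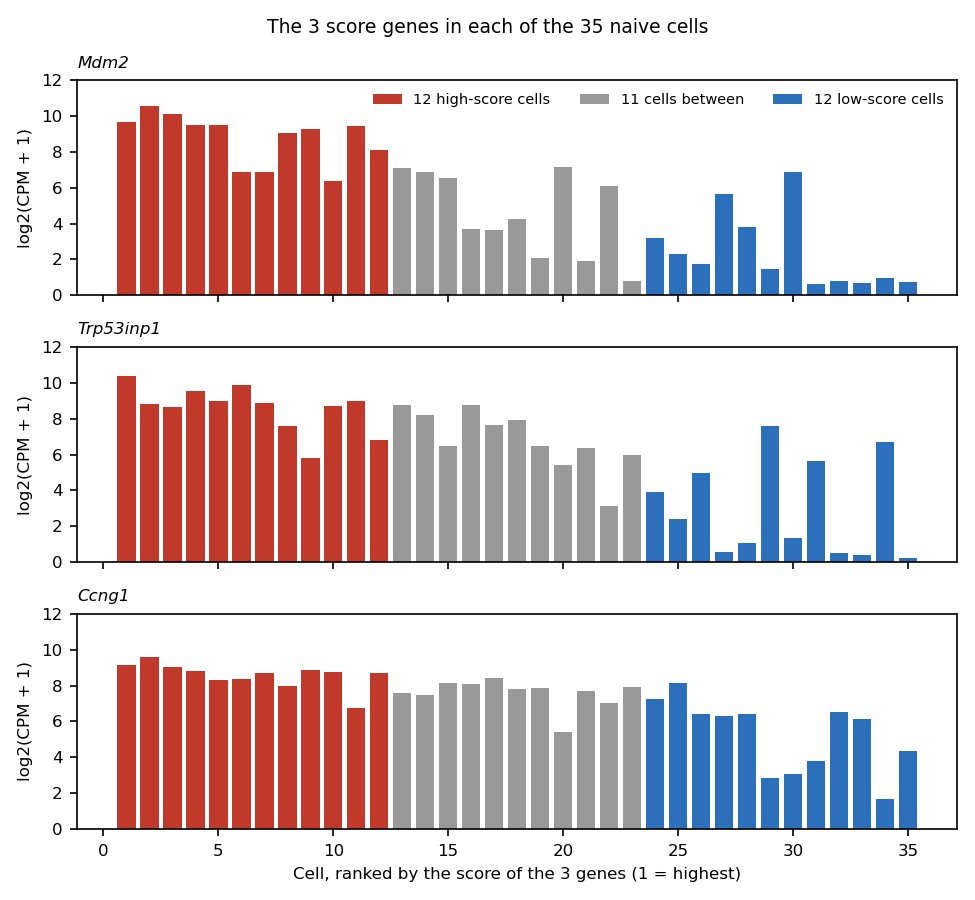
Levels of Mdm2, Trp53inp1 and Ccng1 as log2(CPM + 1) in each of the 35 cells under the Gata6 limit, ranked by the score that these genes make up, with 12 high-score, 11 between and 12 low-score cells in separate colours. The genes chose the cells, so the fall from left to right is set by the choice; single low-score cells still hold high Mdm2 or Trp53inp1.

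The limits between the groups were not gaps. The last high-score cell, cell 15, had a score of 0.63 and the next cell, cell 1, had 0.55. The first low-score cell, cell 26, had -0.43 and the cell before it, cell 28, had -0.32. The Gata6 limit, by contrast, lay in a wide gap, between 1.36 CPM in cell 29 and 82.8 CPM in cell 27. Between pairs of score genes rho over the 35 cells was 0.63 to 0.65.

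Marker genes were read to check what the cells are. Gata6 is 1 of 8 primitive endoderm markers and was used to set cells aside, so it is left out of their sum here. The summed level of the other 7 was 3.59 to 140 CPM in high-score cells and 3.99 to 79.4 CPM in low-score cells, against 3393 to 10101 CPM in the 13 Gata6-positive cells. The sum of 4 trophectoderm markers was 0.47 to 448 CPM in high-score cells and 0.63 to 106 CPM in low-score cells, with Cdx2 at 0 reads in both groups, and 224 to 2953 CPM in Gata6-positive cells. Of 10 pluripotency markers the sum was 439 to 3330 CPM in high-score cells, with a median of 2230, and 2387 to 4957 CPM in low-score cells, with a median of 3856. All 4 markers of the state resembling the 2-cell embryo had 0 reads in both groups, and the fibroblast collagens Col1a2 and Col3a1 had none either, while Col1a1 and Thy1 had at most 6.66 CPM. Both groups thus carry ES cell markers, and some high-score cells stand apart in list levels (the mean of log2(CPM + 1) over a list). Cells 11 and 12 had list levels of the 20 primed epiblast genes of 4.83 and 4.95, where the other high-score cells had at most 2.85, and cell 11 had a naive list level of 2.89, where the other high-score cells had at least 4.61. Cell 10 had a trophectoderm list level of 4.72, where the other high-score cells had at most 2.67. Results that rest on these cells are given with and without them.

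Across the genome the high-score cells differed from the low-score cells in both directions. The comparison took in 11451 genes, those averaging 10 reads or more over the 35 cells, without the score genes. Of these, 1626 (14.2%) were at least 2-fold higher and 1027 (8.97%) at least 2-fold lower in high-score cells. The 2-fold limit is a difference of 1 between the means of log2(CPM + 1), a scale that understates the change of genes near 0. A gene near 0 in only some cells can instead differ more on this scale than in mean CPM. Gaa, for example, differed by 1.46 on it and by -0.10 by the ratio of mean CPM. By that ratio 88 of 126 named genes past 2-fold stayed past it. Among 6284 genes with a mean of at least 20 CPM the shares were 14.1% higher and 10.5% lower. The median difference over all genes was 0.05. No gene, 0% in either direction, separated the groups fully, in that every high-score cell lay above, or every one below, every low-score cell. Single-cell levels of most genes overlap, and with 12 cells on each side many genes pass 2-fold: these shares are the background for all counts below.

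Among p53 targets, more genes were higher in high-score cells than among all genes. Of 104 targets listed, the 3 score genes were set aside, 9 were under the count minimum and 2 had no row in the table, which left 90. Of these, 42 were at least 2-fold higher and 4 at least 2-fold lower in high-score cells, against 14.2% and 8.97% of all genes. Their median difference was 0.95, and 70 of the 90 lay above 0. With 17 cells per side the median was 0.54, and with a pseudocount of 10 CPM it was 0.56. Without cells 11 and 12 it was 0.92, with 43 targets higher and 6 lower. Cd80, counted among the 42, had no read in any low-score cell, so it could only come out higher. Of the 60 targets with a mean of at least 20 CPM, 33 were 2-fold higher and 3 lower. A cell's mean log2(CPM + 1) over the 90 targets was 3.63 to 4.67 in high-score cells, with a median of 4.07, and 2.38 to 3.45 in low-score cells, with a median of 3.05. On this list level the groups did not overlap, although no single gene kept them apart.

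**Figure D2:**
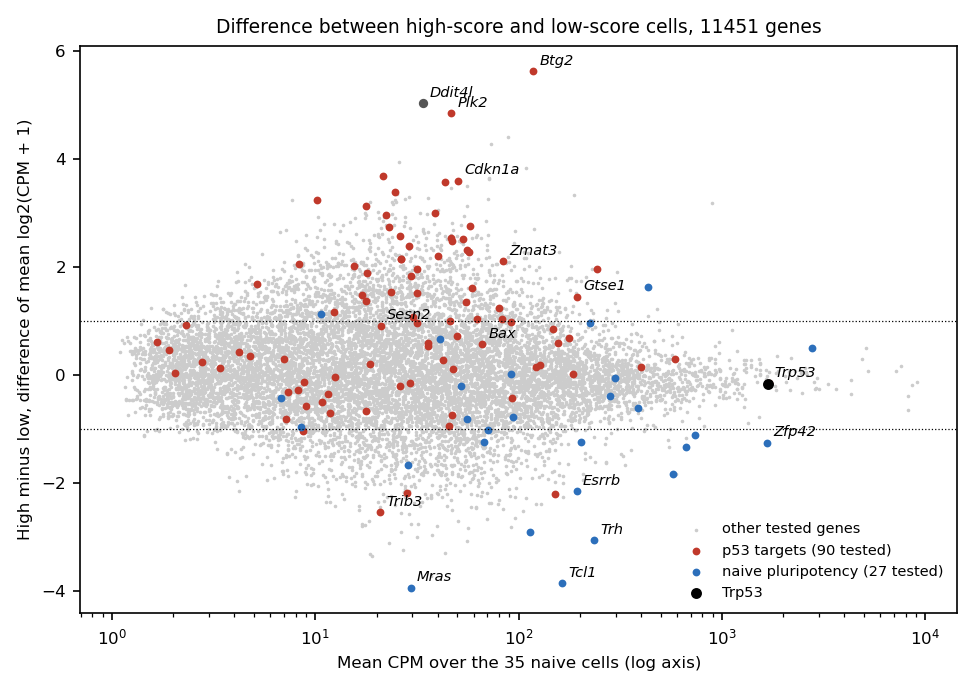
Difference between 12 high-score and 12 low-score cells, as mean log2(CPM + 1), against mean CPM over 35 cells on a log axis, for 11451 genes, with p53 targets, naive pluripotency genes and Trp53 marked and dotted lines at 2-fold. Most p53 targets lie above 0, from -2.54 for Trib3 to 5.62 for Btg2, many naive genes lie below 0, and Trp53 lies at -0.16.

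Trp53 itself differed little. It had 805, 1526 and 2596 CPM (lowest, median, highest) in high-score cells and 1237, 1583 and 2204 CPM in low-score cells, a difference of -0.16. The ranges overlap almost fully, and all 24 cells held the transcript. Summed over cells, Trp53 came to 1560 CPM in high-score cells (95% exact Poisson interval 1552 to 1569) and 1658 CPM in low-score cells (1649 to 1666), where the intervals cover counting error only, since these reads carry no molecular identifiers and copies of a molecule are counted again. Wrap53, which overlaps Trp53 on the other strand, differed by 0.72 and cannot be separated from it in the shared stretch. Over the 35 cells rho between Trp53 and Mdm2 was -0.10.

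Promoter sequence adds a feature that the score did not use. p53 binds DNA as a tetramer at paired half-sites, each a 10-base pattern that is its own reverse complement, so that a match on one strand is a match on both. Windows of RefSeq (GRCm38.p6) from 250 bases before to 50 after each gene start were searched, matched to the genes by symbol. No window was found for Trp53inp1, Zmat3, Perp, Pmaip1, Ptprv, Pvt1 and Klhdc5, so these genes were not searched. Matches are shown for the 2 score genes with a match and for Cdkn1a and Ckap2 out of the 8 higher targets with a match. A match is also shown for Ddit4l, which is no listed target but among the 12 genes with the largest differences described further on. Each is given as 25 bases either side of the match, 5′ to 3′ on the gene's strand, with the half-sites in capitals.
Mdm2: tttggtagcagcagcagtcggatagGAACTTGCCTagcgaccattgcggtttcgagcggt
Ccng1: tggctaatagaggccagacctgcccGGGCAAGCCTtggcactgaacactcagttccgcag
Cdkn1a: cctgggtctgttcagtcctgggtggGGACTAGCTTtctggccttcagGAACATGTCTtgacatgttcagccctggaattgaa
Ddit4l: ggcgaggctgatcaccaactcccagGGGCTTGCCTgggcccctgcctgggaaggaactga
Ckap2: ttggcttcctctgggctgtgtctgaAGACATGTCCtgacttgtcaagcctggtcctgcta
These stretches lie at chr10:117710910-117710969 (minus strand) for Mdm2, chr11:40755437-40755496 (minus) for Ccng1, chr17:29090881-29090962 (plus) for Cdkn1a, chr3:137623557-137623616 (plus) for Ddit4l and chr8:22185988-22186047 (minus) for Ckap2. The half-site begins 186 bases before the start of Mdm2, 185 before Ccng1, 90 before Ddit4l and 203 before Ckap2. Cdkn1a has 2 windows, and in the window shown a pair begins 73 and 51 bases before its start, 12 bases apart. Pairs at most 13 bases apart occur in 20 of 27025 genes (0.0740%), and Cdkn1a was the only p53 target among them.

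Half-sites in these windows were found in like shares of the higher and the other targets. A half-site was found in 21 of 92 p53 target genes with a window (22.8%), against 2582 of all 27025 genes (9.55%). Among targets at least 2-fold higher in high-score cells 8 of 37 held one (21.6%), and among those tested and not higher 10 of 42 did (23.8%). A match is a run of letters and says nothing of binding in these cells, and windows without one say nothing of sites elsewhere in the gene.

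Of the 4 target lists, cell cycle arrest and feedback had the highest median. Of 15 tested, 9 were at least 2-fold higher in high-score cells and none lower, with a median difference of 1.45, which was 0.94 with a pseudocount of 10 CPM and 0.92 with a score of Mdm2 and Ccng1 alone. Btg2, an antiproliferative cofactor of mRNA decay, had 2.16, 191 and 1262 CPM (lowest, median, highest) in high-score cells and 0, 0.55 and 93.4 CPM in low-score cells. It had the largest difference of all 11451 genes, 5.62, and was higher in the high-score cell in 95.8% of all pairs of a high-score and a low-score cell. At 10 CPM or more it was found in 10 of 12 high-score cells (83.3%) and 2 of 12 low-score cells (16.7%). The summed level was 324 CPM in high-score cells (95% exact Poisson interval 320 to 328, counting error only) and 8.88 CPM in low-score cells (8.24 to 9.55). The 2 high-score cells with little Btg2 lay within the range of the low-score cells.

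Cdkn1a, which encodes the cyclin-dependent kinase inhibitor p21, had 0.76, 117 and 240 CPM in high-score cells and 0.12, 1.06 and 91.2 CPM in low-score cells, a difference of 3.60. Again 10 of 12 high-score cells and 3 of 12 low-score cells held at least 10 CPM, so p21 transcript was not confined to either group. Plk2, a polo-like kinase, had 0, 68.8 and 614 CPM in high-score cells and 0, 0.24 and 19.5 CPM in low-score cells, a difference of 4.85. A single high-score cell had no Plk2 read. Zmat3, an RNA-binding protein of splicing, had 0.62, 101 and 478 CPM in high-score cells and 0.34, 21.6 and 164 CPM in low-score cells, with much overlap and a difference of 2.11. Ckap2 and Gtse1, proteins of the mitotic spindle and of G2, differed by 1.96 and 1.45, Notch1 by 1.89 and Sfn, the 14-3-3 protein sigma, by 1.62. Gtse1 was under 2-fold without low-score cell 26, at 0.98, and Ptprv (1.18) was so without cell 35, at 0.67, or without cell 37. Targets of the same list that did not differ by 2-fold include Ppm1d, the phosphatase that switches p53 signalling off (-0.19), Gadd45a (0.22) and Rchy1, a ubiquitin ligase of p53 (0.11).

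Apoptosis targets were higher in part. Of 19 tested, 10 were at least 2-fold higher and none lower, with a median of 1.08, which was 0.70 with 17 cells per side and 1.67 over genes with a mean of 50 reads or more. Perp, a membrane protein of desmosomes and of p53-dependent death, had 0.62, 80.1 and 211 CPM in high-score cells and 0, 0.15 and 91.1 CPM in low-score cells, a difference of 3.57. Phlda3, an inhibitor of Akt, had 0, 13.0 and 100 CPM in high-score cells and 0, 0 and 1.65 CPM in low-score cells (3.24). Apaf1, the scaffold of the apoptosome, had 0.31, 8.99 and 311 CPM in high-score cells and 0, 0.15 and 67.1 CPM in low-score cells (2.97). Phlda3 reached 10 CPM in 7 high-score cells and in no low-score cell, and the groups otherwise overlap near 0.

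Death genes that act directly at mitochondria gave a mixed picture. Pmaip1, which encodes the BH3-only protein Noxa, had 0, 1.33 and 204 CPM in high-score cells and 0, 0 and 0.66 CPM in low-score cells, a difference of 2.75. It was carried by 5 high-score cells, and 6 others had no read. Bbc3 (Puma) had 0, 1.78 and 16.1 CPM in high-score cells and 0, 0.76 and 3.62 CPM in low-score cells (0.92), and Bax had 2.50, 76.9 and 113 CPM in high-score cells and 0.19, 67.0 and 101 CPM in low-score cells (0.58). Neither passed 2-fold, and their ranges overlap. Eda2r, a receptor of the tumour necrosis factor family, differed by 2.53, Trp53i11 by 3.12, Lrdd, which encodes the PIDD protein, by 2.02 and Ikbip by 1.96. Casp6 (1.08) and Dram2 (1.38) were the weakest: Casp6 was under 2-fold without any of 12 single cells, at 0.71 without cell 10, and Dram2 without cell 15, at 0.98. Siva1 (0.60), Aen (0.53) and Bid (-0.42) did not pass.

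**Figure D3:**
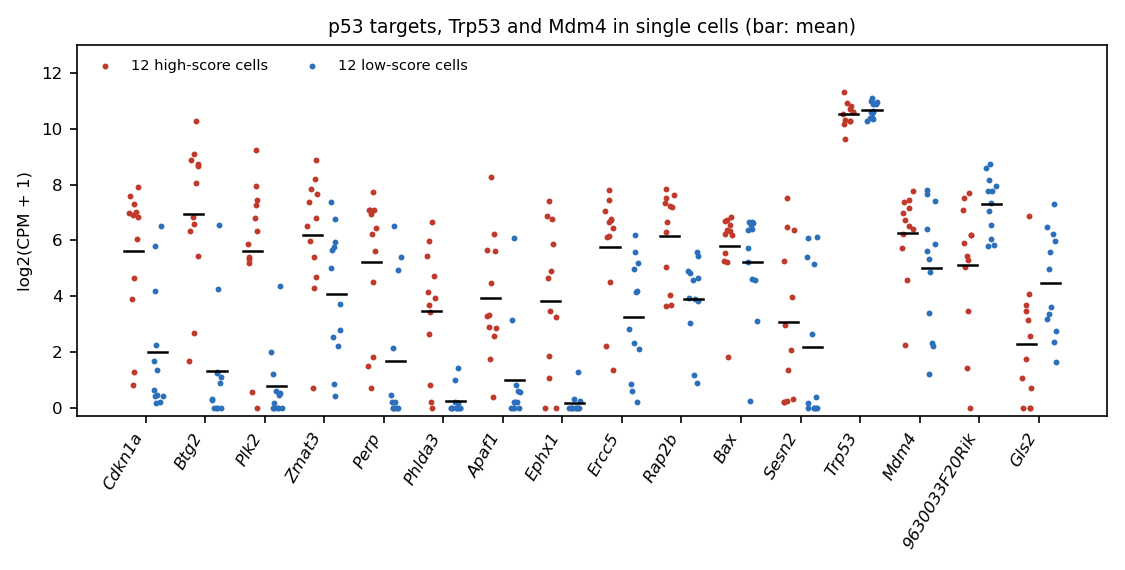
Levels of 14 p53 targets, of Trp53 and of the p53 inhibitor Mdm4 as log2(CPM + 1) in each of the 12 high-score cells (left of each pair) and the 12 low-score cells (right), with bars at the means. Targets such as Btg2 and Plk2 are near 0 in most low-score cells, Trp53 is level, and 9630033F20Rik and Gls2 are lower in high-score cells.

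Targets of metabolism and redox control went in both directions. Of 20 tested, 8 were at least 2-fold higher and 4 lower, with a median of 0.80, which was 0.29 with a score of Mdm2 and Trp53inp1 alone and 0.32 with 17 cells per side. Ephx1, an epoxide hydrolase, had 0, 17.0 and 171 CPM in high-score cells and 0, 0 and 1.41 CPM in low-score cells (3.69). Lpin1, a phosphatidate phosphatase and transcriptional cofactor, had 0.41, 23.2 and 117 CPM in high-score cells and 0, 0 and 53.5 CPM in low-score cells (3.39). Slc19a2, a thiamine transporter, differed by 2.48, Dcxr by 2.20, Pltp by 2.15, Aldh4a1 by 2.05, Cpt1c by 1.53 and Pgpep1 by 1.23. Pgpep1 was under 2-fold without any of 3 single cells, at 0.83 without cell 9.

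The lower targets of that list were 9630033F20Rik, Gls2, Trib3 and Fdxr. 9630033F20Rik had 0, 50.7 and 206 CPM in high-score cells and 54.9, 188 and 429 CPM in low-score cells (-2.19). Gls2, a mitochondrial glutaminase, had 0, 3.62 and 118 CPM in high-score cells and 2.10, 21.0 and 160 CPM in low-score cells (-2.18). Trib3, a pseudokinase that also answers to the amino acid response factor ATF4, had 0, 0.16 and 74.2 CPM in high-score cells and 0, 43.8 and 95.1 CPM in low-score cells (-2.54). These genes had the opposite direction from most targets, with overlapping ranges. Fdxr, ferredoxin reductase, differed by -1.04 and was under 2-fold without any of 13 single cells, at -0.74 without cell 39. Sesn2, a stress-induced regulator of mTORC1, differed by 0.92 and Sesn1 by -0.82.

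Of 36 targets of DNA repair and other functions, 15 were at least 2-fold higher and none lower, with a median of 0.67, or 0.30 with a pseudocount of 10 CPM. Among the repair genes Ercc5, the nuclease XPG, had 1.57, 94.2 and 225 CPM in high-score cells and 0.16, 11.3 and 71.6 CPM in low-score cells (2.51). Polk, a translesion polymerase, had 0.49, 32.1 and 210 CPM in high-score cells and 0, 4.09 and 62.1 CPM in low-score cells (2.39), and Mgmt, which removes alkyl groups from guanine, differed by 2.31 and Fancc, of the Fanconi anaemia core complex, by 1.49. Ddb2 (-0.58), Xpc (-0.50) and Rrm2b (-0.32), which also belong to repair, did not differ by 2-fold, so the repair genes of the list were split. The small GTPase Rap2b had 11.5, 123 and 227 CPM in high-score cells and 0.83, 18.8 and 47.6 CPM in low-score cells (2.27), and Arap2 (3.00), Exoc4 (2.76), 1700007K13Rik (2.58), Zfp365 (2.15), Dyrk3 (1.83), D630023F18Rik (1.53) and the long noncoding RNA Pvt1 (1.36) were higher too. Cd80 had no read in any of the 12 low-score cells and up to 76.0 CPM in high-score cells, 8 of which were also at 0. Absent from low-score cells, Cd80 could only come out higher and adds no support to the count of higher genes. Triap1 (1.03) and Bloc1s2 (1.04) lay at the limit and were under 2-fold without any of 13 and 6 single cells, at 0.84 without cell 48 and 0.71 without cell 24.

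Regulators of p53 were near the background. Of 43 tested, 7 were at least 2-fold higher and 3 lower, where 14.2% and 8.97% of all genes were, with a median of -0.06. Mdm4, the inhibitor that pairs with Mdm2, had 3.79, 98.3 and 217 CPM in high-score cells and 1.32, 43.7 and 222 CPM in low-score cells (1.26). It was under 2-fold without low-score cell 48, at 0.91. Kinases and partners of the damage response among the higher genes were Atm (1.04), Prkdc (1.23), the ATR partner Atrip (1.64) and Trp53bp1 (1.29), with the acetyltransferase Kat5 (1.01) and the deubiquitinase Otud5 (1.37). Atm was at 0.80 without cell 24, Prkdc at 0.84 without cell 31, Trp53bp1 at 0.88 without cell 42 and Kat5 at 0.68 without cell 12, and each was under 2-fold without some other cells too. The lower ones were Rfwd2 (-1.35), a ubiquitin ligase that acts on p53, Rrs1 (-1.41), a ribosome assembly factor, and Zfp110 (-1.35). Of 53 genes of the wider DNA damage response 2 were higher and 5 lower, with a median of -0.24, and Rad1, of the checkpoint clamp, was the lowest of them (-2.37).

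Besides listed p53 targets, the 12 genes with the largest differences among those with a mean of at least 20 CPM held others. Ddit4l, an inhibitor of mTORC1 signalling, had 10.3, 63.4 and 191 CPM in high-score cells and 0, 0.12 and 23.8 CPM in low-score cells, a difference of 5.03, and lay higher in the high-score cell in 98.6% of pairs. All 12 high-score cells and 1 of 12 low-score cells held at least 10 CPM. Klhdc5 had 36.5, 126 and 446 CPM in high-score cells and 0, 0.55 and 142 CPM in low-score cells (4.41). Serpine2, a secreted protease inhibitor, had 0, 109 and 476 CPM in high-score cells and 0, 0.09 and 114 CPM in low-score cells (4.27). Klhl26 (3.94), Wdr35 (3.83), a protein of transport in cilia, Pdhx (3.64), a component of the pyruvate dehydrogenase complex, and Gpx3 (3.62), a secreted glutathione peroxidase, completed the 12 with Btg2, Plk2, Ephx1, Cdkn1a and Perp. Among the promoter windows, Ddit4l and Pdhx held a half-site.

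Many naive pluripotency genes were lower in high-score cells. Of 27 tested, 13 were at least 2-fold lower and 2 higher, against 8.97% and 14.2% of all genes, with a median of -0.96. That median was -0.47 without cell 11 and -0.40 without cells 11 and 12, where 11 were lower and 2 higher, and it was -0.42 with a pseudocount of 10 CPM. Tcl1, an activator of Akt, had 0, 4.82 and 297 CPM in high-score cells and 0.35, 220 and 473 CPM in low-score cells (-3.85). Mras, a small GTPase, had 0, 0.37 and 21.0 CPM in high-score cells and 0, 60.2 and 144 CPM in low-score cells (-3.93), the lowest difference of all genes. Trh, the thyrotropin-releasing hormone precursor, had 0, 6.43 and 1118 CPM in high-score cells and 0.22, 180 and 719 CPM in low-score cells (-3.05). In each of these some high-score cells reached low-score levels.

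Transcription factors of the naive network were split. Esrrb, an orphan nuclear receptor, had 0.15, 64.7 and 298 CPM in high-score cells and 87.2, 252 and 589 CPM in low-score cells (-2.15), and summed to 106 CPM in high-score cells (95% exact Poisson interval 104 to 108) and 295 CPM in low-score cells (291 to 299). Zfp42 (Rex1), a zinc finger protein that marks naive cells, had 102, 1067 and 1998 CPM in high-score cells and 1074, 2061 and 3770 CPM in low-score cells (-1.25), and lay higher in the high-score cell in 12.5% of pairs. It was under 2-fold without cell 11, at -0.97. Tet2, a dioxygenase of methylated cytosine, differed by -1.83, Prdm14 by -1.66, Stat3, the effector of LIF, by -1.24 and Tbx3 by -1.02, the last under 2-fold without any of 13 single cells, at -0.65 without cell 20. Klf4 (0.03), Klf5 (0.66), Tfcp2l1 (-0.61) and Dppa3 (0.97) did not differ by 2-fold, and Klhl13 (1.64) and Socs3 (1.13) were higher.

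Of the 18 core pluripotency genes 3 were lower (16.7%) and 1 higher (5.56%), against 8.97% and 14.2% of all genes. Their median was -0.28, or -0.14 without cell 5. Nanog had 1.47, 19.8 and 138 CPM in high-score cells and 9.65, 50.5 and 156 CPM in low-score cells (-1.54). It was at 10 CPM or more in 7 of 12 high-score cells and 11 of 12 low-score cells. Summed over cells, Nanog came to 45.0 CPM in high-score cells and 61.2 CPM in low-score cells. It was under 2-fold by the ratio of mean CPM and with a pseudocount of 10 CPM. Pou5f1 differed by -0.98 and Sox2 by 0.00, so the factors that define the pluripotent state were present in both groups. Nr0b1 (-1.48) and Lin28a (-1.46) were lower, Lin28a not by 2-fold without cell 35 (-0.94). Zscan10 (1.05) was higher, and under 2-fold without any of 8 single cells, at 0.53 without cell 39.

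Genes of the primed epiblast, the state that follows the naive one in the embryo, were higher in part. Of 20 tested, 5 were higher (25%) and none lower, against 14.2% and 8.97% of all genes. The median of 0.58 was 0.25 without cell 11 or without cell 12 and -0.0069 without both. The direction of the median thus rests on these cells, and without both 5 genes were higher and 2 lower. The median was 0 by medians over cells, 0.08 with 17 cells per side, 1.02 with 8 cells per side (10 higher and 2 lower) and 1.25 by the ratio of mean CPM (12 higher and 1 lower). Nodal, Pim2, Cldn6 and Grhl2 stayed past 2-fold without both. Nodal, a growth factor of the TGF-beta family, had 0.31, 21.3 and 151 CPM in high-score cells and 0, 0.64 and 56.6 CPM in low-score cells (2.52). Pim2 (2.27), a kinase, Lef1 (2.07), a Wnt effector, Cldn6 (1.96), a claudin, and Grhl2 (1.46) were the others. Lef1 had no read in any low-score cell, so it could only come out higher. Fgf5, a defining gene of the primed state, was near 0 in nearly all cells, at most 6.29 CPM in high-score cells and 0.11 CPM in low-score cells, and Otx2 (0.83) and Dnmt3b (0.70) did not pass.

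Cell cycle genes differed in few cases. Of 52 G1-S genes 4 were higher (7.69%) and 6 lower (11.5%), with a median of -0.17. Of 60 G2-M genes 7 were higher (11.7%) and none lower, with a median of 0.05. Among all genes 14.2% were higher and 8.97% lower. Usp1, a deubiquitinase of DNA repair, had 1.26, 23.5 and 246 CPM in high-score cells and 31.9, 142 and 267 CPM in low-score cells (-2.52). Ccne1, cyclin E1, had 0.33, 39.7 and 336 CPM in high-score cells and 4.38, 190 and 454 CPM in low-score cells (-1.86). Psrc1, a spindle protein that p53 is known to regulate, had 105, 225 and 831 CPM in high-score cells and 1.13, 108 and 248 CPM in low-score cells (2.02). List levels of the phases overlapped widely: G2-M genes were at 6.34 to 7.41 in high-score cells and 5.86 to 7.28 in low-score cells, and G1-S genes were at 5.18 to 6.74 in high-score cells and 4.81 to 6.85 in low-score cells.

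Outside the p53 list, death genes were varied. Of 14 genes of the Bcl2 family 2 were higher (14.3%) and none lower, where 14.2% and 8.97% of all genes were. The share of higher genes was thus that of the background. The family's median was 0.36, or 0.24 without cell 10. Its 2 higher genes were Bnip3 and Bcl2l11 (Bim). Bnip3, a BH3 protein of mitophagy, had 11.0, 121 and 637 CPM in high-score cells and 0.28, 8.03 and 470 CPM in low-score cells (3.33). Bcl2l11 had 0.62, 35.2 and 250 CPM in high-score cells and 0, 1.30 and 82.0 CPM in low-score cells (2.97). Of 20 caspases and death receptors 3 were higher (15%) and 5 lower (25%), with a median of -0.12. The lowest of them were the death receptor Tnfrsf21 (-2.78) and the caspase-8 inhibitor Cflar (-1.91).

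Lists of other stress programmes had medians from -0.22 to 0.56. The counts below stand against 14.2% of all genes higher and 8.97% lower. Of 27 genes of the ATF4 response 1 was higher and 5 lower (median -0.20), and Asns, asparagine synthetase, had 4.42, 216 and 829 CPM in high-score cells and 165, 727 and 1271 CPM in low-score cells (-1.83). Of 25 NRF2 genes 4 were higher (16%) and 1 lower (4%), with a median of -0.08. Of 15 heat shock genes 1 was higher and 1 lower (6.67% each), with a median of -0.22. Of 19 immediate early genes 6 were higher (31.6%) and 1 lower (5.26%), with a median of 0.56, led by Fos (2.19). Leaving out single cells moved this median between 0.19 (without cell 44) and 0.86 (without cell 36). It fell to 0.05 when the count minimum was raised to 50 reads, and to 0.11 with no minimum. Its size thus depends on which genes with few reads are included. Among the 7 of these genes averaging 20 CPM or more, 2 were higher and none lower. Glycolysis and hypoxia genes had 3 higher and none lower of 27 (0.21), and of these Slc2a1, a glucose transporter, had 114, 210 and 496 CPM in high-score cells and 11.3, 65.8 and 403 CPM in low-score cells (1.82).

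The steadiest lists were those of basic machinery. None of 44 ribosomal protein genes passed 2-fold in either direction (median 0.05), and 1 each of 31 oxidative phosphorylation genes (-0.11), 32 ribosome biogenesis genes (-0.24) and 15 housekeeping genes (-0.00) was lower. Of 18 MYC and growth genes 1 was higher (-0.21). Autophagy and lysosome genes were less steady: 5 of 24 were higher (20.8%, against 14.2% of all genes) and none lower, with a median of 0.09. The lone oxidative phosphorylation gene was Ndufs1, a subunit of complex I, with 2.01, 69.2 and 414 CPM in high-score cells and 25.2, 332 and 513 CPM in low-score cells (-1.94). Of 14 germline genes 2 were higher and 2 lower (0.25), of 10 trophectoderm genes 3 were higher (0.63, or 0.27 without cell 10) and of 8 primitive endoderm genes 1 was higher and 1 lower (0.16).

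**Figure D4:**
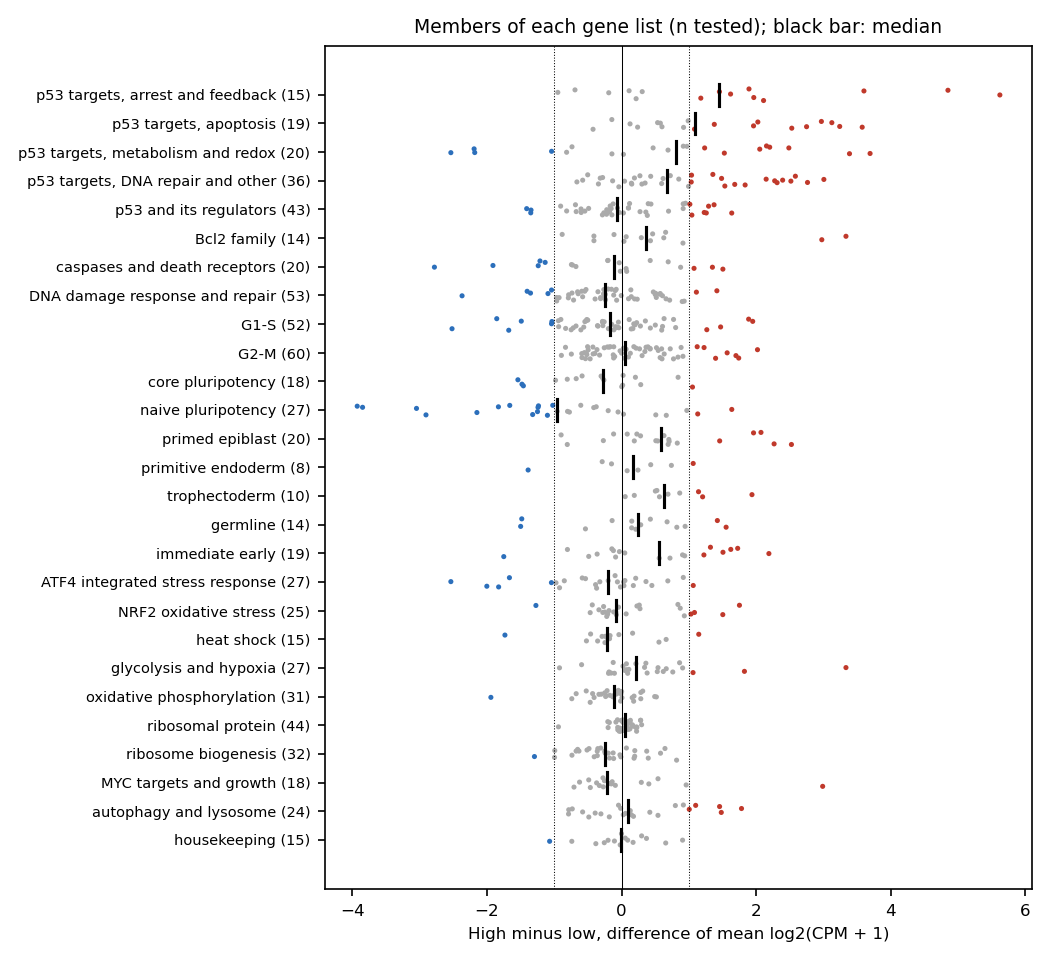
Difference between high-score and low-score cells, as mean log2(CPM + 1), for every tested member of 27 gene lists, with black bars at the medians and dotted lines at 2-fold. The 4 lists of p53 targets have medians from 0.67 to 1.45, the naive list lies at -0.96 and ribosomal proteins lie close to 0.

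Among the lower genes outside these lists were Ebp (-3.71), an isomerase of cholesterol synthesis, Tgm1 (-3.29), a transglutaminase, Slc25a46 (-3.24), a protein of the outer mitochondrial membrane, Bdh2 (-3.11), Cobl (-3.07), an actin nucleator, Cpsf4l (-3.00) and Pik3r2 (-2.90), a regulatory subunit of phosphoinositide 3-kinase. Vim, vimentin, had 0, 0.31 and 162 CPM in high-score cells and 0.12, 51.2 and 199 CPM in low-score cells (-2.96), with the collagens named above at or near 0. Of 4 fibroblast genes tested, Vim and Acta2 (-1.83) were lower, and no gene of the list for the state resembling the 2-cell embryo reached the count minimum. Manba, a lysosomal mannosidase that is on the naive pluripotency list and counted there, differed by -2.91. These 12 lowest genes, with Mras, Tcl1 and Trh, overlap between the groups at the single-cell level.

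The other cells give values that the comparison did not use. Over all 35 cells rho of the score with the list level of the 90 targets was 0.75, and 0.71 with the arrest and feedback targets, -0.49 with the naive genes and 0.28 with the primed genes. These values include the 24 cells compared. Over the 11 cells between, where the score spans a narrow range, rho was -0.08 for the targets, 0.11 for arrest and feedback and 0.09 for the naive genes. Over the 13 Gata6-positive cells it was 0.21 for the targets, 0.56 for arrest and feedback and -0.17 for the naive genes. Of the 42 higher targets, 21 had a positive rho with the score in the cells between, where 48.0% of all tested genes did, and 25 in the Gata6-positive cells, where 48.6% did.

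**Figure D5:**
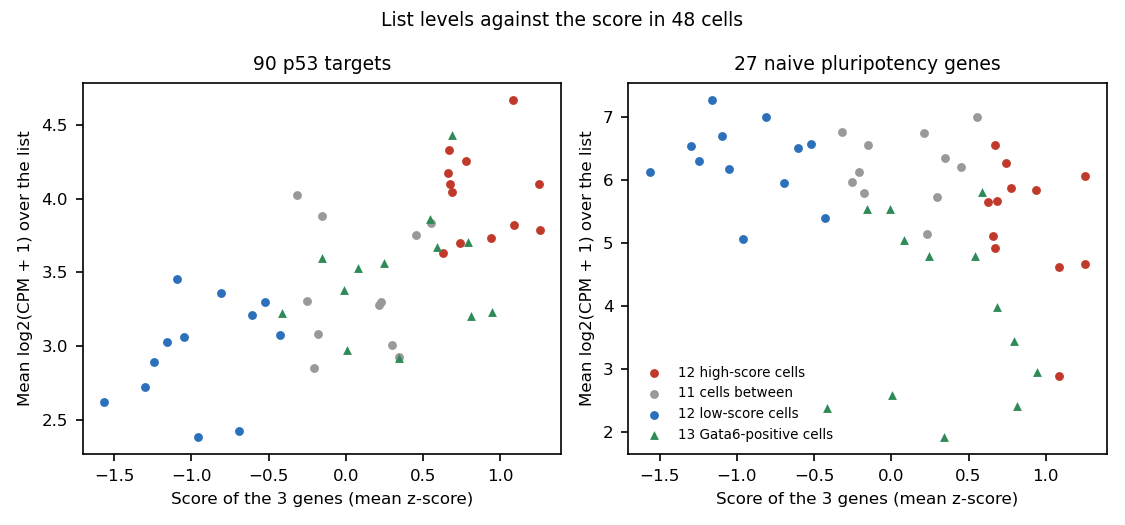
Mean log2(CPM + 1) over 90 p53 targets (left) and 27 naive pluripotency genes (right) against the score of the 3 genes, for 12 high-score, 11 between, 12 low-score and 13 Gata6-positive cells. The targets split the high-score from the low-score cells without overlap and show no trend within the 11 cells between (rho -0.08), and 1 high-score cell, cell 11, lies far below the others in naive genes, at 2.89.

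Single targets followed each other only weakly. The mean pairwise rho over the 35 cells was 0.060 among the 90 targets and 0.011 among all tested genes, and it was 0.11 among arrest and feedback targets. Against Mdm2, rho was 0.74 for Btg2, 0.67 for Plk2, 0.53 for Cdkn1a and 0.35 for Zmat3, and -0.47 for Esrrb and -0.52 for Tcl1. Since Mdm2 chose the cells, these values describe the same choice. Gata6-positive cells, which the score did not rank, held Btg2 and Cdkn1a at 10 CPM or more in 13 of 13 cells, with medians of 287 and 181 CPM. The other targets among the 12 largest differences were found in fewer of them: Plk2 was at 10 CPM or more in 10 of the 13 cells (median 49.2 CPM), Ephx1 in 4 (median 0), and Perp in 3 (median 0.17 CPM). Pmaip1 was at most 0.13 CPM in these cells.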

How the data were processed

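Whole-number read counts per gene of 96 libraries were deposited by the authors as 1 table of 23284 genes without normalization. STAR 2.3.1z12, Subread 1.4.5-p1, featureCounts and build mm9 are named, without role or order, per the submitters' processing notes. The annotation and the treatment of reads with several matches are not given in the sources used here. Each column matched 1 library by its label, and 0 columns were left unused. Counts of the 2 lanes of a cell were summed and scaled to CPM with Python 3.11.15 and pandas 2.3.3. High-score and low-score cells were compared by the difference of mean log2(CPM + 1) over genes averaging 10 reads or more, with no test, since the cells are of 1 culture group. The computed difference, and not the count of genes past 2-fold, was tested on simulated counts with planted differences. The spread between simulated cells was set beforehand and not taken from these cells.

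The cells, the 29 gene lists and the score were chosen with earlier results of these data known. Named genes are the 12 largest and 12 smallest differences at a mean of at least 20 CPM, p53 targets and regulators past 2-fold, up to 4 genes of each other list, fixed p53 genes and cell type markers; list genes beyond these were picked after their values were seen. Alternatives changed the scaling (edgeR 4.0.16 TMMwsp or DESeq2 1.42.0 poscounts factors, in R 4.3.3), pseudocount, count minimum, cells per side, score genes, lanes, depth and average, or left out cells. Depth per cell, 4408953 to 9767245 reads, makes counting error small beside the spread between cells.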

Additional observations from a re-analysis of the deposited data

How the results depend on the processing

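Of 126 named genes past 2-fold, TMMwsp scaling left 113 past it, poscounts scaling 115 and a pseudocount of 10 CPM 75. With 8 cells per side 110 stayed past it, with 17 cells per side 95, and with scores of 2 of the 3 genes 97 to 104. Cells chosen on lane 1 with values of lane 2 left 123, and thinning to the smallest depth left 125. These 2 settings reuse reads of the same amplified cDNA, so they speak of read sampling only. Medians left 103 and the ratio of mean CPM 88. Signs turned for 3 genes: Casp6 was at -0.62 with 8 cells per side and at -0.068 with a score of Mdm2 and Trp53inp1, Atg5 at -0.55 by medians and Gaa at -0.10 by the ratio of means. With a pseudocount of 10 CPM 393 genes were higher and 240 lower, and the medians were 0.30 for targets of DNA repair and other functions and 0.56 for all p53 targets; by construction it shrinks differences of low genes. A mean of at least 50 reads gave apoptosis targets a median of 1.67. With 8 cells per side 1662 genes were lower, and with 17 per side 921 were higher and the median of all p53 targets was 0.54. A score of Mdm2 and Trp53inp1 gave metabolism and redox targets 0.29, and the ratio of means gave 1586 lower genes and trophectoderm genes 1.64; the cause was not tested. The count of higher genes was 1368 with TMMwsp and 1242 with poscounts scaling, and of lower genes 1229 and 959. Leaving out each of the 24 cells gave 1528 to 1828 higher genes, 930 to 1156 lower genes, medians of 0.77 to 0.99 for all p53 targets and -1.12 to -0.47 for naive genes, and no turned sign among the 126. Without cells 11 and 12, chosen after seeing the data, 115 of the 126 genes stayed past 2-fold, the target median was 0.92 and the primed epiblast median -0.0069. No paired analysis was possible because all cells are of 1 group with no shared replicate numbers. With 12 cells per side, no labelled separate cultures and amplified cDNA, low genes at 0 may be undetected, and the differences may not hold in other cultures.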
